A study of Mus musculus with 2 samples.

Results

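Fragments of 5S ribosomal RNA were followed in small RNA libraries of mouse mesenchymal stem cells with and without Dicer. Reads of 18 nt or longer were kept when they lay in sense and without mismatch in a gene annotated as 5S rRNA (Rn5s, or a symbol beginning n-R5s), and reads shared by several copies were counted once. The rule gave 181 of the 354 annotated rRNA genes and 679 distinct reads, of which 228 occurred in both libraries. In the f/f library 406 of 410792 distinct sequences were 5S, carrying 229356 of 9943989 reads. In the null library 501 of 909932 distinct sequences were 5S, carrying 66903 of 6291599 reads.

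The cells were immortalized clonal lines of fibroblast-like cells from adult C57BL/6 bone marrow, cultured in alpha-MEM with antibiotics and 10% serum (fetal bovine) until nearly confluent. One library came from a line with the genotype Dicer f/f, called f/f here, which the labels treat as wild type. The other came from a line with the genotype Dicer -/-, called null here. Immortalization and clonal growth are common to both libraries, and how many clones each stands for and how Dicer was deleted are not stated in the labels. RNA of 15 to 50 nt was cut from a 15% denaturing gel, so full-length 5S RNA lay outside the size range and what was sequenced were shorter pieces. With 1 library per genotype there was no replicate check and genotypes could not be compared by a test, so p-values are absent. Intervals are at the 95% level and cover counting error only, since PCR copies are not independent molecules.

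5S rRNA is the smallest RNA of the large ribosomal subunit. It is made outside the nucleolus by RNA polymerase III, with TFIIIA binding inside the gene, from clustered tandem repeats. The La protein holds the U-rich end of the new transcript until it is trimmed, and the RNA then joins the ribosomal proteins RPL5 and RPL11 in the 5S RNP, which enters the ribosome or, when ribosome assembly stalls, binds MDM2. The folded RNA has a closing helix formed by its ends and a pair of arms, one from the 5′ side and one from the 3′ side.

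The 181 annotated copies held 149 distinct sequences of 79 to 132 nt on 21 chromosomes, and 42 of them stood on one strand in a cluster on chromosome 8 (123538786 to 123622046, GRCm38). Rn5s itself is annotated at chr8:123598158-123598276 on the minus strand. Its sequence of 119 nt was shared by 26 genes, all in that cluster, and contained more of the distinct reads (499) than any other copy. It is therefore used as the reference for positions, counted from 1 at the 5′ end. Nearly all the reads were cut from 1 stretch of it.

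The same 5 reads led both libraries, in the same order, and they made up 88.3% of the 5S reads in f/f and 83.9% in null. All 5 end at base 110 and differ only in where they begin. They are shown because they carry most of the 5S signal, with bases 87 to 110, the whole of the most abundant read, in capitals.
bases 87 to 110: GAGACCGCCTGGGAATACCGGGTG
bases 85 to 110: ggGAGACCGCCTGGGAATACCGGGTG
bases 86 to 110: gGAGACCGCCTGGGAATACCGGGTG
bases 84 to 110: tggGAGACCGCCTGGGAATACCGGGTG
bases 93 to 110: GCCTGGGAATACCGGGTG

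5S fragments were a smaller part of the null library than of the f/f library. They were 2.31% of all f/f reads (2.30 to 2.32) and 1.06% of all null reads (1.06 to 1.07), which is 23065 and 10634 CPM, read counts scaled to a common library total. The null level was 2.17-fold lower (2.15 to 2.19), a difference far outside counting error. Its size and direction depend on what the reads are set against, and the libraries differed in makeup, with miRNA reads at 59.6% of f/f and 2.17% of null. Per read that matched any transcript, a total that in f/f is mostly miRNA, 5S was 1.56-fold higher in null, and per snoRNA and snRNA read it was 0.106 times the f/f level. Antisense 5S reads numbered 0 in both libraries, which allows antisense levels of at most 0.302 CPM (f/f) and 0.477 CPM (null).

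Fragments of other structured RNAs were more frequent in null on the same scale. Fragments of Y RNAs, the small RNA polymerase III transcripts bound by Ro60, were 9.87-fold higher in null (9.77 to 9.97), and those of 7SL, the polymerase III RNA of the signal recognition particle, were 1.39-fold higher (1.35 to 1.43). snoRNA reads, from guides of rRNA modification, were 4.57-fold higher and snRNA reads, from the spliceosome, 2.15-fold higher. The annotated 5.8S rRNA copy held 0 reads in both libraries. miRNA reads were 27.5-fold lower in null (27.3 to 27.6), so the 5S ratio of 0.461 lay between those of miRNAs and of the other structured RNAs.

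Fragments of mesenchymal marker genes were present. All 10 mesenchymal genes looked up (collagens, fibronectin, vimentin and others) gave mRNA fragments, 216 reads of no other gene in f/f and 2077 in null (Thy1 gave shared reads only). Reads of no other gene numbered 0 and 11 for the 5 haematopoietic genes (the 11 were from Cd68, while Ptprc, Tyrobp, Lyz2 and Laptm5 stood at 0), 4 and 1 for the 3 endothelial genes and 0 in both libraries for the 3 epithelial genes. Dicer1 gave 26 f/f and 66 null reads over its exons, and since the labels do not name the deleted exon these fragments do not check the genotype.

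Nearly all 5S reads came from the 3′ arm of the RNA. Sorted by midpoint, 228778 f/f reads (99.7%, 99.7 to 99.8) and 65579 null reads (98.0%, 97.9 to 98.1) lay beyond base 80. Coverage was highest at base 102 in both libraries, at 22997 CPM (f/f) and 10396 CPM (null), and lowest around the middle of the RNA, 0.805 CPM at base 40 in f/f and 15.6 CPM at base 41 in null. Coverage in f/f thus spanned more than 4 orders of magnitude along one short RNA, and the f/f and null levels crossed at base 78.

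**Figure D1:**
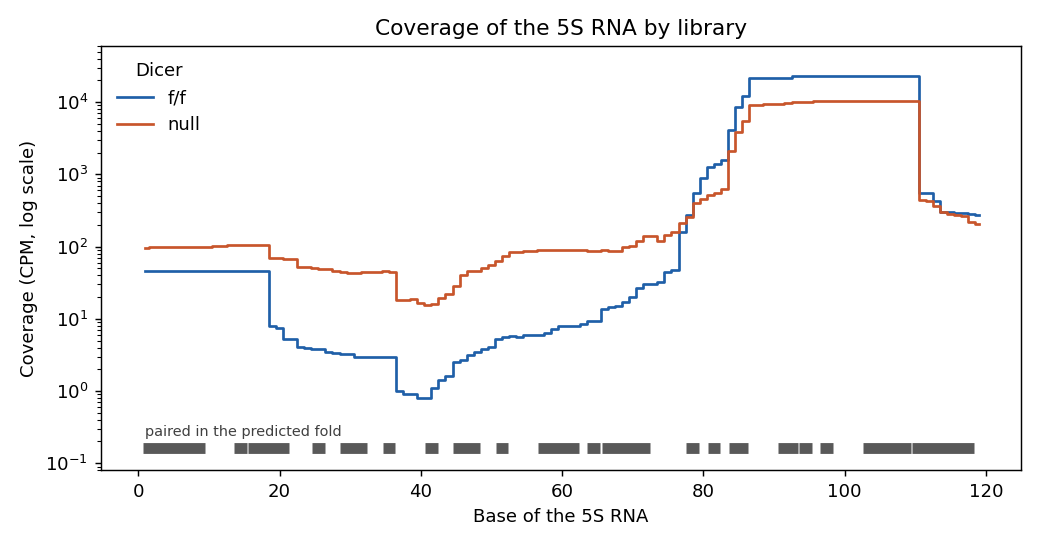
Coverage of each base of the 119-nt 5S RNA in CPM (log scale) in the f/f (blue) and null (orange) libraries, with grey bars for bases paired in the predicted fold. The f/f line is above the null line over bases 78 to 119 and below it over bases 1 to 77. Reads that run past base 119 are not included.

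The rest of the RNA was read more often in null, against the direction of the 3′ arm. Reads with their midpoint in the first 40 bases numbered 460 in f/f (46.3 CPM) and 691 in null (109.8 CPM), a ratio of 2.37 (2.11 to 2.68). Reads of bases 41 to 80 numbered 118 (11.9 CPM) and 633 (100.6 CPM), a ratio of 8.48 (6.96 to 10.4). The 3′ part had a ratio of 0.453 (0.449 to 0.457), so the interval of each region lay apart from the other regions' intervals. Per snoRNA and snRNA read all 3 ratios shift by -2.12 on the log2 scale, which turns the first region below 1 and leaves the middle region above it. Per read that matched any transcript they shift by 1.75, which turns the 3′ part above 1 as well. The directions of the first region and the 3′ part thus depend on what the reads are set against. The order of the 3 ratios does not.

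The 5′ end of 5S RNA gave a small set of reads with a fixed first base. Exactly at base 1 began 452 f/f reads (0.197% of 5S reads, 0.179 to 0.216) and 594 null reads (0.888%, 0.818 to 0.962). A pair of them is shown because their null to f/f ratios differed by length.
bases 1 to 18: gtctacggccataccacc
bases 1 to 22: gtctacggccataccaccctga

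The 18-nt read had 373 f/f reads (37.5 CPM) and 238 null reads (37.8 CPM), and its ratio of 1.01 had an interval of 0.854 to 1.19. The 22-nt read had 14 f/f and 102 null reads, a ratio of 11.5 (6.56 to 21.8). Ends at base 18 thus made up 83.6% of the reads that began at base 1 in f/f and 40.9% in null. Base 18 is the earliest end that the minimum of 18 nt allows these reads. Shorter reads from base 1 were left out, so whether base 18 is a preferred end cannot be read from these shares. Longer reads from base 1 are given here only in part. In the predicted fold base 18 lies inside the paired stretch of bases 16 to 21, and base 22 is the first unpaired base after it.

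In the middle of the RNA the null library held a family of reads that ended at base 73, the fifth commonest end there with 213 reads. The leading 2 reads of the family, chosen after their values were seen, are shown with no capitals since they lie outside bases 87 to 110.
bases 53 to 73: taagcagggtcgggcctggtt
bases 46 to 73: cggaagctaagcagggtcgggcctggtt

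They had 47 and 44 reads in null and 0 each in f/f, where 0 reads allow up to 0.302 CPM against 7.47 and 6.99 CPM in null. The read of bases 52 to 73 had 2 f/f and 32 null reads. Of the 213 null reads of this end, 209 also fit 1 or more of 4 genes annotated as miRNA, as did 109 of the 118 f/f and 572 of the 633 null reads of bases 41 to 80, so their gene of origin is not known. These reads begin at several bases and share their last base, which is the first unpaired one after the predicted helix of bases 66 to 72.

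Read starts were spread over a few bases and read ends were not. The commonest first bases were the same 5 in both libraries: base 87 with 40.02% of f/f and 35.3% of null 5S reads, base 85 with 19.3% and 16.3%, base 86 with 15.2% and 14.7%, base 84 with 11.3% and 13.8%, and base 93 with 3.81% and 5.29%. Bases 84 to 87 together began 85.8% of the f/f reads (85.7 to 86.0) and 80.2% of the null reads (79.9 to 80.5). In the predicted fold, with a minimum free energy of -50.5 kcal/mol, bases 84 to 86 pair with bases 91 to 93 and bases 87 to 90 form the loop between them, so the leading starts fell on the 5′ side and at the edge of that hairpin loop.

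**Figure D2:**
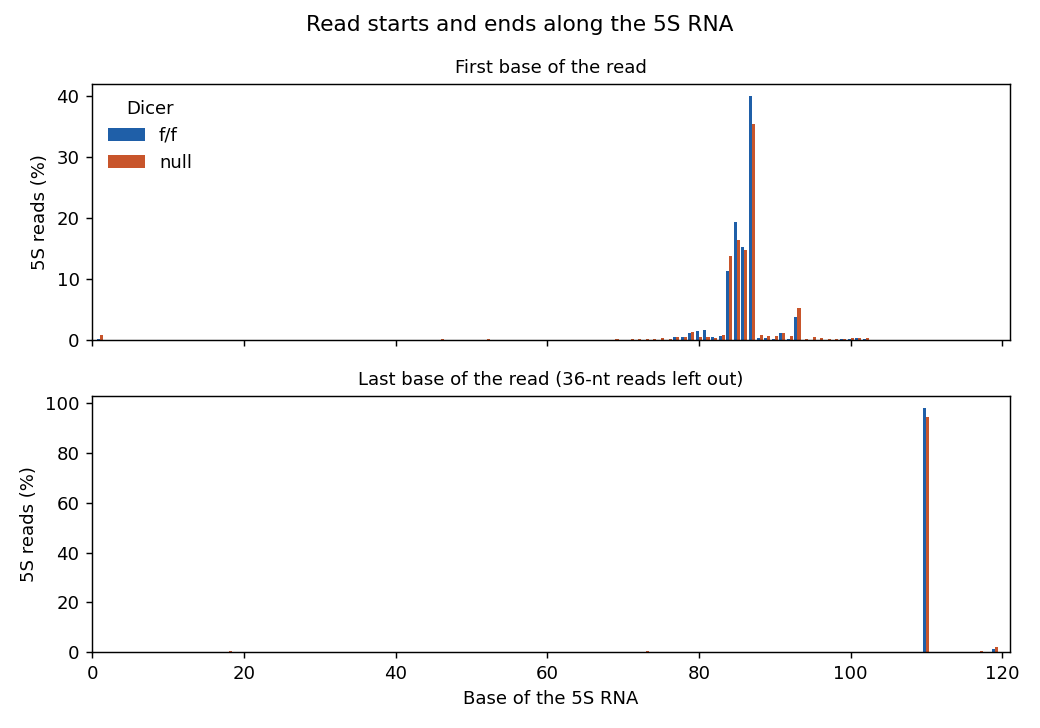
Share of 5S reads (%) that begin (top) or end (bottom, without reads of 36 nt) at each base of the 5S RNA, f/f in blue and null in orange. Starts form a block at bases 84 to 87 with a smaller bar at base 93, and ends form a single bar at base 110.

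Base 110 ended 98.2% of the f/f reads (98.1 to 98.3) and 94.8% of the null reads (94.6 to 94.9), leaving out reads of 36 nt. The annotated last base, 119, came next with 1.20% and 1.98%. In f/f the ends at bases 18, 112 and 113 followed with 378, 104 and 92 reads, and in null those at bases 117, 18 and 73 with 257, 243 and 213. One end thus accounted for nearly all of the pattern, and the fold change depends on it. Reads ending at base 110, 36-nt ones included, numbered 222732 and 62012, a ratio of 0.440 (0.436 to 0.444), while all other 5S reads numbered 6624 and 4891, a ratio of 1.17 (1.12 to 1.21).

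The bases that follow this end are CTGTAGGC, bases 111 to 118, the same letters that open a 3′ cloning linker in wide use for small RNAs. The labels do not say which linker was used or how it was removed. In all reads of a library, 5S or not, this octamer was found with at most 18 bases before it in 71180 f/f and 62917 null reads, and with 19 or more before it in 4 and 6. Outside reads in which 5S bases come before it, the counts were 4481 and 4728 against 2 and 2, and how many of these are 5S reads with a changed base was not tested. The octamer was thus nearly missing from reads with more than 18 bases in front of it, although reads of 36 nt leave room for 28. Its first 5 bases alone did occur there, in 3609 f/f and 12410 null reads.

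**Figure D3:**
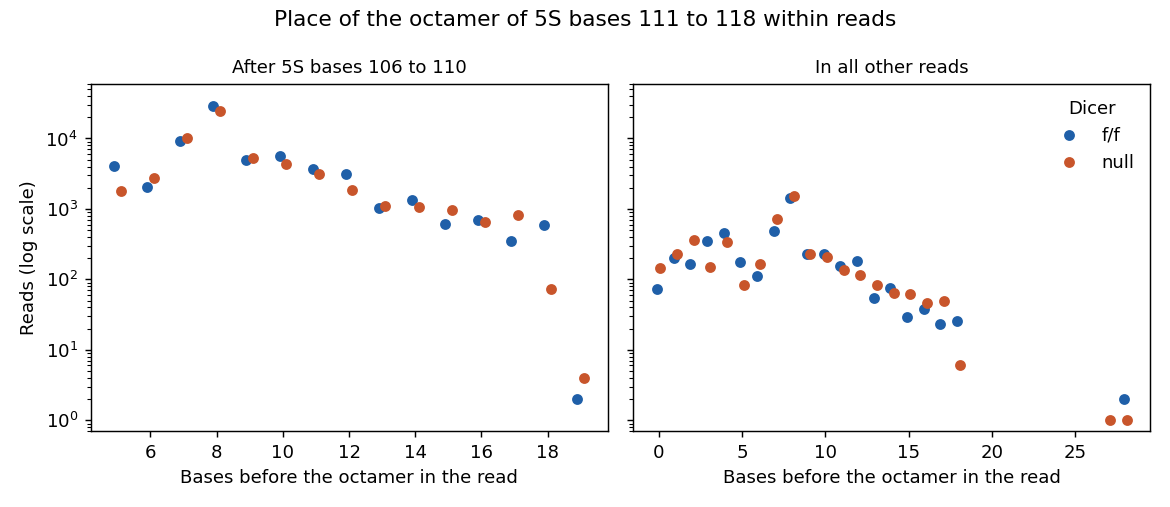
Number of reads (log scale) by how many bases stand before the octamer of 5S bases 111 to 118, for reads in which it follows 5S bases 106 to 110 (left) and for all other reads (right), f/f in blue and null in orange. Each point is 1 count above 0; counts run up to 18 bases before it and nearly stop at 19.

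The 5S reads showed the same step at base 93. Of reads that began at bases 79 to 92, 212227 in f/f and 57700 in null ended at base 110, and 2 and 4 ran through bases 111 to 118. Reads that began at base 93, with 18 bases up to base 110, ended there in 8033 and 3356 cases and ran through in 551 and 67. For starts at bases 94 to 102 the proportions turned round, with 1437 and 2309 reads ending at base 110 and 20677 and 17931 running through. An RNA that ended at base 110 and one that was cut there when a linker was searched for cannot be told apart in these files. The lengths of reads ending at base 110 are therefore lower bounds, and their first bases do not depend on this.

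The 5S reads kept by the rule, without those past the annotated last base, had a length profile of their own within each library. Reads of 24 to 27 nt made up 86.1% of 5S reads in f/f (85.9 to 86.2) and 81.0% in null (80.7 to 81.3), and the median was 25 nt in both. At 24 nt alone stood 91742 5S reads in f/f and 23844 in null, between 39.8% and 40.2% of the first and 35.6% of the second, against 5.31% and 5.04% of all reads in those libraries. At 22 nt, the length of most miRNAs, stood 0.464% and 1.21% of 5S reads, against 45.6% and 10.4% of all reads. Under the rule, the 5S profile did not show the loss of 22-nt reads that the whole null library shows. Most of these 5S reads share an end that could not be told from a linker cut, so their lengths are lower bounds. The profile also depends on the rule. Reads of 24 nt or longer were 92.9% of 5S reads in f/f and 87.4% in null. When the last 3 nt were not matched, they were 77.1% and 55.4%.

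**Figure D4:**
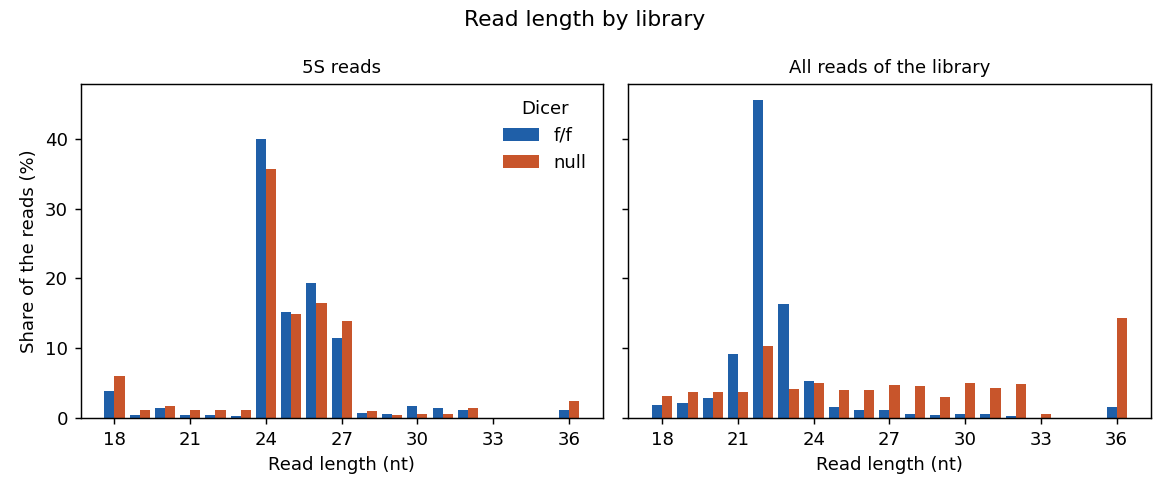
Share of reads (%) at each length from 18 to 36 nt among 5S reads kept by the rule (left) and among all reads of the library (right), f/f in blue and null in orange. The left side leaves out reads that run past the annotated last base. 5S reads peak at 24 to 27 nt in both libraries, while all f/f reads peak at 22 nt and all null reads at 36 nt.

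Between the libraries, the 5S lengths shifted at both sides of the peak. Reads of 18 to 23 nt were 7.11% of 5S in f/f (7.01 to 7.22) and 12.6% in null (12.4 to 12.9). Reads of 28 to 35 nt were 5.65% (5.56 to 5.75) and 3.99% (3.84 to 4.14), and those at 36 nt, where reads stop, 1.15% (1.11 to 1.20) and 2.42% (2.30 to 2.54). Null 5S reads were thus more often short or at the length limit. The lower pooled share of 28 to 35 nt came from 29 to 31 nt, since 28 nt (0.748% and 0.967%) and 32 nt (1.21% and 1.42%) were higher in null. Since most lengths are set by the first base and the shared end at base 110, the shift follows the starts. Starts at bases 79 to 83 had a null to f/f ratio of 0.296 (0.283 to 0.309), bases 84 to 87 of 0.431 (0.427 to 0.435), bases 88 to 93 of 0.697 (0.677 to 0.718) and base 94 or later of 1.21 (1.14 to 1.29). Over these 4 groups, the later the reads began in this arm, the higher the null level stood against f/f.

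The leading reads followed this order only in part. The 24-nt read of bases 87 to 110 had 90829 f/f reads (9134 CPM) and 23373 null reads (3715 CPM), 2.46-fold lower in null (2.42 to 2.49). The read of bases 85 to 110 had 43636 and 10751 reads and was 2.57-fold lower (2.51 to 2.62), and that of bases 86 to 110 had 34489 and 9628 and was 2.27-fold lower (2.22 to 2.32). The read of bases 84 to 110 had 25458 and 9052 reads and was 1.78-fold lower (1.74 to 1.82), although it begins before the other 3. The 18-nt read of bases 93 to 110 had 8033 and 3356 reads and was 1.51-fold lower (1.45 to 1.58). All 5 were lower in null, and their intervals did not overlap.

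The reads with the 2 lowest and the 3 highest null to f/f ratios lay at opposite sides of the 3′ arm. They are shown with the same capitals, the first 2 from the low side and the last 3 from the high side.
bases 81 to 110: ggatggGAGACCGCCTGGGAATACCGGGTG
bases 80 to 110: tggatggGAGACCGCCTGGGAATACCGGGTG
bases 96 to 117: TGGGAATACCGGGTGctgtagg
bases 94 to 117: CCTGGGAATACCGGGTGctgtagg
bases 95 to 117: CTGGGAATACCGGGTGctgtagg

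The read of bases 81 to 110 occurred 3772 times in f/f and 329 times in null, 7.25-fold lower (6.48 to 8.14), and that of bases 80 to 110 had 3280 and 318, 6.53-fold lower (5.82 to 7.35). The next lowest reads did not keep to that side. The third lowest was a 26-nt read from base 85 held only by other 5S copies, with 150 and 17 reads. The fourth lowest, of bases 93 to 119, had 542 and 65 reads, 5.28-fold lower (4.07 to 6.93). The read of bases 79 to 110, which begins a single base before that of bases 80 to 110, had 2721 and 891 reads and was only 1.93-fold lower (1.79 to 2.09). Levels of neighbouring starts therefore did not move as a block. On the high side, the read of bases 96 to 117 had 2 f/f and 52 null reads, a ratio of 41.1 (10.8 to 348), that of bases 94 to 117 had 4 and 48, a ratio of 19.0 (6.95 to 72.4), and that of bases 95 to 117 had 7 and 80, a ratio of 18.1 (8.37 to 46.4). All 3 end at base 117 and rest on few f/f reads.

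Among distinct 5S sequences with at least 50 reads over both libraries together, 70 in all, 15 (21.4%) were more than 2-fold higher in null, 22 (31.4%) more than 2-fold lower and 33 in between, with a median log2 ratio of -0.57. The same rule over all 13101 distinct sequences gave 58.0% higher and 35.0% lower, with a median of 1.94. The 5S sequences split by their end, and end and start are tied. At 18 nt or more, a read that ends at base 110 begins at base 93 or before. Of the 43 sequences that begin at bases 79 to 93, 1 was more than 2-fold higher and 20 were lower. Of the 15 that begin at base 94 or later, 6 were higher and 0 lower. Of the 40 that end at base 110, 0 were more than 2-fold higher and 18 were more than 2-fold lower (median -0.97), and of the 30 that end elsewhere, 15 were higher and 4 lower (median 0.92). Among the 40, 24 were held only by variant copies, and 11 of these were more than 2-fold lower. Whether those 24 are separate RNAs or changed copies of the leading reads was not tested.

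**Figure D5:**
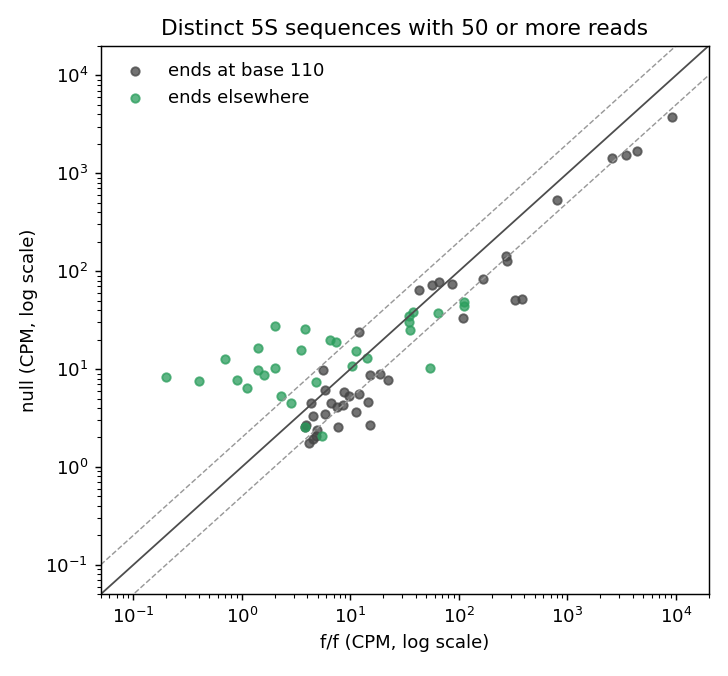
Level of each distinct 5S sequence with 50 or more reads, f/f on the horizontal and null on the vertical axis (CPM, both log scales), grey for the 40 that end at base 110 and green for the 30 that end elsewhere; the solid line marks equal levels and the dashed lines a 2-fold difference. Points above the upper dashed line, 15 in all, are all green.

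A further set of 5S reads lay outside the rule because the annotation stops at base 119. Reads that run through base 119 and go on numbered 50571 in f/f (5086 CPM) and 44764 in null (7115 CPM), a ratio of 1.40 (1.38 to 1.42). The added bases were only T in 94.2% of them in f/f and 89.3% in null. A single T was added in 22808 and 16278 reads and a pair of T in 24341 and 22941, and a T followed by A in 1617 and 2884. They began most often at base 103, in 27441 f/f (54.3%) and 22714 null reads (50.7%), which is the first base of the predicted helix strand of bases 103 to 109. Reads that stop at base 119 itself were 2727 and 1294, so most of the kept reads that reached base 119 carried at least 1 base more. The minimum of 18 nt left out reads from base 103 or later that stop at base 119. It kept reads from such starts when enough bases were added, so the 2 counts do not cover the same starts. Of the reads past base 119, 45.2% in f/f and 36.5% in null also fit an exon of another gene, Tmem38b, where the same stretch is followed by 1 T.

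With these reads added, 5S came to 279927 reads (28150 CPM) in f/f and 111667 reads (17749 CPM) in null, a ratio of 0.631 (0.626 to 0.635), 1.59-fold lower in null. The makeup differed more than the total. Starts at bases 84 to 87 then held 70.3% of the f/f and 48.1% of the null reads, and starts at bases 94 to 104 held 18.9% and 41.6%. Reads of the 3′ arm thus began mainly in 2 places, bases 84 to 87 and bases 94 to 104, and the second had a larger share in null. Whether RNAs that began at bases 84 to 87 reached the 3′ end could not be seen, given the missing octamer.

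The gene of origin was known for few reads. The reference sequence held 226939 f/f reads (98.9%) and 66015 null reads (98.7%), and it alone has 26 identical genes. Bases 50 to 119 also stand without a change, followed by 1 T, in an exon of Tmem38b, a gene of an intracellular cation channel on chromosome 4 (53826045 to 53862019), so 98.7% of f/f and 97.2% of null 5S reads fit that transcript as well. These reads cannot be assigned between the 2 sources by sequence. Over all its exons Tmem38b held 249293 f/f and 81379 null reads. Of these, 226451 and 65045 were 5S reads by the rule, and 22841 and 16329 were reads past base 119. Very few reads thus fit the rest of that transcript, and the source of the shared reads was not tested. Reads that fit no gene outside the 5S set numbered 2394 and 873, and 0 of them lie in the reference sequence. They are thus variant reads only and do not measure the reference 5S RNA on its own.

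Reads that fit only copies other than the reference were rare, 2417 in f/f (1.05%, 1.01 to 1.10) and 888 in null (1.33%, 1.24 to 1.42). Of the 181 genes, 112 held at least 1 read and 53 held a read the reference lacks. The 3 leading copies were n-R5s109 in the chromosome 8 cluster (123554060 to 123554178, minus strand), with 582 and 193 such reads, n-R5s151 on chromosome 7 (16471813 to 16471931, plus strand), with 554 and 187, and n-R5s88 on chromosome 9 (102127888 to 102128005, plus strand), with 466 and 175. Their leading reads are shown with the changed base in capitals, because they lead the reads that the reference lacks.
n-R5s109 and n-R5s151: gagaccgcctggAaataccgggtg
n-R5s88: gagaccTcctgggaataccgggtg

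The first, G99A in positions of the 5S RNA, had 223 f/f and 49 null reads, and the second, G93T, had 186 and 56. They were set against all single changes of the same 24-nt read. The 5 changes that an annotated copy holds had a median of 144 f/f reads (113 to 223) and 35 null reads. The other 67, which no annotated copy holds, had a median of 69 f/f reads (2 to 1710) and 24 null reads (0 to 839), and the highest of them was G106T. Levels of reads from variant copies thus lay within the range of changed reads that have no gene behind them, and expression of those copies could not be read from them.

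Genes that make, carry or sense 5S RNA were read as mRNA fragments. All 23 genes of the list gave reads, 19 of them at least 10, and these 19 were all more than 2-fold higher in null and 0 lower. Over all 16402 mRNA and lncRNA genes with as many reads, 82.5% were higher by that rule and 1.96% lower. The median log2 ratio was 2.95 for the 19 genes and 2.33 for all, and the list's sum of 1143 f/f and 4767 null reads gave a ratio of 6.59 (6.18 to 7.04), or 1.37 per mRNA and lncRNA read. The list thus lay on the same side as mRNA fragments as a whole. The mRNA and lncRNA read total leaves out reads that also fit an rRNA, small RNA or mitochondrial gene, while the gene counts keep them. List reads of no other gene numbered 220 in f/f and 2334 in null, mostly from Rpl5. Their ratio was 16.8 (14.6 to 19.3), and no matching value was computed for all genes.

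Within the 5S RNP, Rpl5 gave 707 f/f and 3456 null reads, a ratio of 7.73 (7.12 to 8.39), of which 164 and 1965 matched no other gene, and it held most of the list's reads. Rpl11 gave 15 and 42, a ratio of 4.43 (2.40 to 8.59). The assembly factors that load the particle gave few: Rpf2 3 and 17, Rrs1 0 and 11, and the RPL5 and RPL11 importer Heatr3 7 and 35. Mdm2, the p53 ubiquitin ligase that the free particle binds, gave 66 and 257, a ratio of 6.15 (4.68 to 8.19), with 10 and 36 that matched no other gene. Ssb, which encodes La, gave 4 and 20. Every one of these was read more often in null, and the counts of most are too small to order them.

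On the transcription side, Gtf3a, which encodes TFIIIA, gave 0 f/f and 4 null reads. The TFIIIC subunit genes, whose complex binds inside polymerase III genes, gave 184 and 326 (Gtf3c1), 4 and 15 (Gtf3c2), 13 and 25 (Gtf3c3), 4 and 22 (Gtf3c4) and 5 and 21 (Gtf3c5). For Gtf3c1 only 3 and 29 of the reads matched no other gene. Brf1, a subunit of the initiation factor TFIIIB, gave 6 and 32. Among the polymerase III subunits shown, Polr3c gave 57 and 159 and Polr3f 155 and 250, mostly shared reads. Polr3k gave 6 and 68, of which only 1 and 10 matched no other gene. Polr3d gave 2 and 15, and Polr3a, Polr3b and Polr3e under 10 each. Polr3g, the subunit form known from stem cells, gave 2 f/f and 55 null reads, none shared with another gene, a ratio of 43.5 (11.5 to 368). It was the highest ratio on the list with at least 10 reads and a read in f/f, on 2 f/f reads, beside a ratio of 4.81 for all mRNA and lncRNA reads. Rpl5 and Polr3k also had lower bounds above 4.81, 7.12 and 7.82. On reads of no other gene these bounds were 16.1 for Rpl5 and 2.25 for Polr3k. The share of all mRNA and lncRNA genes with a lower bound above 4.81 was not computed for either kind of read. These bounds therefore do not set the 3 genes apart from mRNA fragments as a whole.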

How the data were processed

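The authors deposited raw counts, per the labels and the files: each file lists distinct read sequences of 5 to 36 nt beside how often each occurred, without coordinates. The genome build was mm9 per the submitters' processing notes. Not given in the sources used here are the trimming tool, linker and aligner. Reads of at least 18 nt were matched in sense and without mismatch to GENCODE M21 transcripts (GRCm38), whose coordinates are given. Reads with up to 6 bases past base 119 were counted apart. Reads held only by variant copies were placed through a global alignment of the copy to Rn5s. CPM were computed over all reads. Intervals were exact, by Clopper-Pearson for shares and conditional on the sum of both counts for ratios. The floor for 0 reads was 3 counts. Python 3.11.15, numpy 2.4.6, scipy 1.17.1, Biopython 1.88, ViennaRNA 2.7.2 (fold) and matplotlib 3.10.9 were used, and matching and intervals were tested on simulated data.

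Named were the 5 most abundant reads, starts and ends of each library, the 3 highest and 3 lowest ratios among sequences with at least 50 reads, the 3 variant copies with most reads, and partner genes with at least 10 reads. Genes below that, the fourth lowest ratio, reads in the first and middle regions, reads past base 119, the octamer, Dicer1 and Tmem38b were added after values were seen. The members and lists were chosen with earlier results of these data known. Alternatives changed the denominator, length window, minimum count, matching rule and reads counted. Some named items that the rule covers are not reported here.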

Additional observations from a re-analysis of the deposited data

Results flagged for a closer look

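Reads that run past the annotated last base of the 5S RNA belong to no 5S gene by the rule, yet they numbered 50571 in f/f and 44764 in null, far above the 3 counts that a count of 0 allows. They are a signal in data outside the main measurement, and most of them added only T. Whether the added T were copied from the gene's terminator or joined later was not tested, since no genome sequence was used here.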

How the results depend on the processing

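The null to f/f ratio of the 5S share (0.461) turned above 1 per transcript-matched read (1.56) and without reads that end at base 110 (1.17, an alternative chosen after seeing the data). It was 0.106 per snoRNA and snRNA read, 0.506 per read of 18 nt or more, 0.819 at 18 to 23 nt, 0.434 at 24 nt or more, 0.631 when the last 3 nt were not matched, 0.576 on reads of no other gene, which are variant reads only and no check on the reference and 0.631 with reads past base 119 (also chosen later). The cause of these shifts was not tested. A minimum of 2 reads per sequence, added rRNA genes and the reference sequence alone moved it by less than 0.01.

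In percentage points, null minus f/f, the share at 24 nt or longer (-5.53) was -21.7 without matching the last 3 nt, -10.2 on those variant reads, -2.99 for reads of 20 nt or more and -0.915 with each distinct sequence counted once. The share beyond base 80 (-1.73) was -1.09, -3.38, -1.56 and -22.5 under the same settings, -1.39 without reads of 36 nt, -2.02 by first base and -18.3 without reads that end at base 110. The share ending at base 110 (-3.44) was -24.0, -4.38, -2.85 and -8.34 under those 4 settings and -4.42 with reads of 36 nt kept.

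Of the 5S sequences, 51 were higher and 37 lower with a minimum of 10 reads, 1 and 12 with 200, 5 and 55 per snoRNA and snRNA read, and 40 and 1 per transcript-matched read. At 4-fold 12 were higher and 4 lower, and without sequences that end at base 110 the counts were 15 and 4. The partner genes' ratio of 6.59 was 1.37 per mRNA and lncRNA read and 16.8 on reads of 1 gene alone. No paired analysis was possible because each genotype has 1 library. Depth limits the first 2 regions and most partner genes.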
